A study of Mus musculus with 17 samples.

Results

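The genes described here were 7 of the 21452 gene symbols on the array: the metallothioneins Mt1 and Mt2, the zinc transporters Slc39a14, Slc39a4, Slc30a1, and Slc30a10, and Mtf1, the transcription factor that responds to metal. They were taken by symbol from the deposited table of log2 ratios, with every probe of that symbol, which gave 13 of 41174 probes. The genes were chosen with earlier results of these same mice known, above all the rise of Mt2 in HFD+1B over chow, so they were in part selected on readouts of the arrays. For this reason HFD+1B minus chow is given below as a description with no p-value. In the other comparisons the adjusted p-value covers all probes tested, but it does not correct for this choice of genes, and the comparisons share mice with each other.

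Livers of 17 male C57BL/6N mice, as the labels name the strain, were measured, 1 array a mouse. The chow group (n = 4) was fed chow for 3 months and gavaged once with maltose, and the 1B group (n = 4) was fed chow for 3 months and gavaged once with ethanol at 5 g/kg. The HFD group (n = 4) was fed a high-fat diet for 3 months and gavaged with maltose, and the HFD+1B group (n = 5) had the same diet for 3 months and 1 ethanol gavage at 5 g/kg. All 17 mice thus shared strain, sex, 3 months on their diet, and a single gavage. Each array held liver cDNA of 1 mouse in Cy5 and a reference RNA common to all arrays in Cy3, so every value below is a log2 ratio of liver over reference unless it is called a signal or a difference.

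Metallothioneins are small proteins rich in cysteine that bind zinc and copper, and the liver makes them in quantity in response to metal load, glucocorticoids, inflammatory cytokines, and oxidative stress. MTF-1, the product of Mtf1, senses free zinc and binds metal response elements in the promoters of metallothionein genes and of Slc30a1. Zinc transporters of the Slc39 family (ZIP proteins) bring zinc into the cytosol, and those of the Slc30 family (ZnT proteins) move it out of the cytosol. Slc39a14 (ZIP14) is the hepatic importer known from the acute phase response, in which plasma zinc falls, and it carries manganese and iron as well. Slc30a10 is best known as an exporter of manganese.

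Upstream sequence is shown for Mt1 and Mt2, which lie side by side on chromosome 8 and moved most, and for Slc30a1, which also carries a metal response element but whose mRNA did not pass the test in any comparison. Each line holds the 250 bases before the RefSeq gene start (build GRCm38.p6, plus strand), 5′ to 3′. Capitals mark letters that match the metal response element core, TGCACNC or TGCGCNC, on either strand.
Mt1, chr8:94178839-94179088: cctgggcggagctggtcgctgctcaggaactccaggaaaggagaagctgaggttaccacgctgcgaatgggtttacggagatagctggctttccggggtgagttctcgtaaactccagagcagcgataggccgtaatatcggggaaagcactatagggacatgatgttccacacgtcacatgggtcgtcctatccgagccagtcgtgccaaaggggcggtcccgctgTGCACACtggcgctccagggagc
Mt2, chr8:94172368-94172617: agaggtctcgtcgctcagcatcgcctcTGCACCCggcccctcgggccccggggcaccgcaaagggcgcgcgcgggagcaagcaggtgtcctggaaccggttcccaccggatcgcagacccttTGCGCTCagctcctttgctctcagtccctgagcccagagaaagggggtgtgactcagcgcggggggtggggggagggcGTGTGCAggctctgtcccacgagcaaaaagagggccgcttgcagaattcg
Slc30a1, chr1:191906531-191906780: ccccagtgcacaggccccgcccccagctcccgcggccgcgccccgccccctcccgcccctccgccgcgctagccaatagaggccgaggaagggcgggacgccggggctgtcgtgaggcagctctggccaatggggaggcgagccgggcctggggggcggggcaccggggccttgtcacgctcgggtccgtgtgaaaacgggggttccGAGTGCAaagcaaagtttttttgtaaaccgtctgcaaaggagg

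Windows were held for 5 of the 7 genes (Mt1, Mt2, Slc30a1, Slc30a10, and Mtf1, and none was held for Slc39a14 and Slc39a4). The core occurred 3 times in the Mt2 window, 1 time each in those of Mt1 and Slc30a1, and 0 times in that of Mtf1. It occurred 3 times in the Slc30a10 window, of which 2 overlap on opposite strands. Of 32817 mouse windows of this length, 21.4% held 1 match or more and 1.26% held 3 or more. With the 50 bases after the gene start included, the counts were 3 for Mt1, 4 for Mt2, 2 for Slc30a1, and 3 for Slc30a10, against 1.97% of all windows with 3 or more. A STAT core, TTCNNNGAA, was in none of the 5 windows, against 7.01% of all windows, and the glucocorticoid receptor motif AGAACA was in that of Mtf1 alone (16.1% of all windows). The antioxidant response element core, TGACNNNGC, was found 1 time each in the Mt2 and Slc30a1 windows (10.2% of all windows). These are matches of letters, not measured binding.

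The first Mt1 probe is shown because it lies in the part of the mRNA that codes for the metal-binding protein: read in frame 3 it has 19 codons with no stop, of which 6 are cysteine codons, in capitals.
Mt1 probe 1: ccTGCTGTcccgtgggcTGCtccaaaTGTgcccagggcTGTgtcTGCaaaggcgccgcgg
It shared no run longer than 5 bases with the Mt2 probe and none longer than 6 with the second Mt1 probe. This compares the probes with each other only. Whether Mt1 probe 1 also binds Mt2 mRNA was not tested.

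All but 1 of the 13 probes were well above background in Cy5 on all 17 arrays, and none was saturated in either dye. The exception was the third Mtf1 probe, well above background on 0 arrays, which was not tested. Across the series 34664 probes and 19358 genes were tested. In whole liver RNA, more cells of a type and more RNA per cell cannot be told apart. The share of probes well above background was 77.7% to 79.5% on chow arrays, 75.4% to 81.1% on 1B arrays, 74.2% to 80.4% on HFD arrays, and 78.5% to 86.1% on HFD+1B arrays. The mean log2 ratio of 5 ribosomal RNA probes was low in all HFD mice (-3.81 to -2.15) against chow (0.22 to 0.59), 1B (-1.16 to 0.12), and HFD+1B (-1.03 to 1.12), and its part in comparisons with HFD was not tested. The 17 arrays lay on 5 slides, and each slide held mice of 3 or 4 groups.

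Mt1 and Mt2 were high after the ethanol binge on either diet. In the chow mice the Mt1 log2 ratio (probe 1) was -2.22, -2.76, -3.53, and -3.51, and in the 1B mice it was 1.07, 0.32, -1.32, and 1.1. In the HFD mice it was -2.31, -2.80, 0.24, and -3.41, and in the HFD+1B mice it was 2.45, 1.54, 1.96, 1.88, and 1.76. Every HFD+1B mouse lay above every mouse of the other 3 groups, every 1B mouse lay above every chow mouse, and HFD mouse 3 lay among the 1B mice.

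The Mt2 log2 ratio was -2.41, -3.28, -3.59, and -3.77 in chow and 0.26, -0.69, -2.58, and 0.51 in 1B. The HFD mice had -2.92, -3.14, -0.80, and -3.77, whereas the HFD+1B mice had 2.14, 1.37, 2.09, 1.96, and 1.82. The order of the groups was that of Mt1, with HFD mouse 3 again among the 1B mice, but 1B mouse 3 overlapped the chow mice. The spread was smallest in HFD+1B, with SDs of 0.34 for Mt1 and 0.31 for Mt2 (n = 5), against 1.13 and 1.40 in 1B (n = 4), 1.60 and 1.29 in HFD (n = 4), and 0.63 and 0.60 in chow (n = 4).

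**Figure D1:**
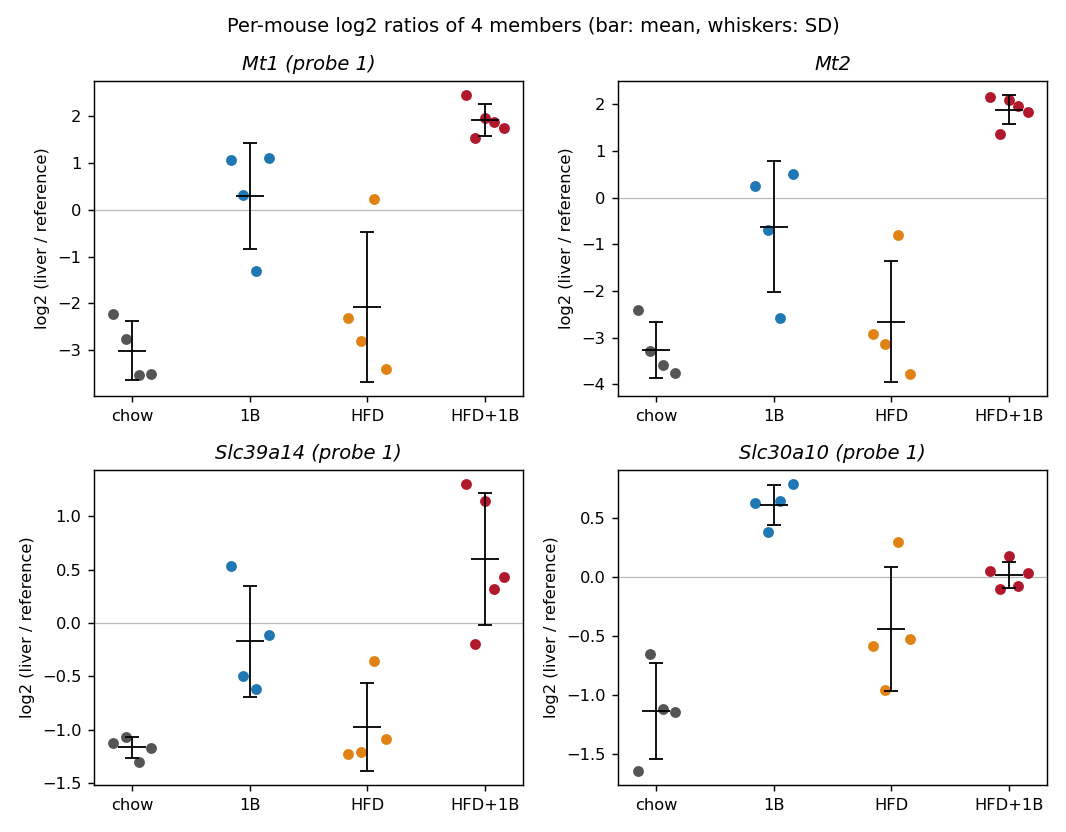
Log2 ratio of liver over reference (y axis) for each mouse in the 4 groups (x axis), for the brightest probe of Mt1, Mt2, Slc39a14, and Slc30a10; bars are group means and whiskers are SDs. The 5 HFD+1B mice form the highest group for Mt1 and Mt2, whereas for Slc30a10 the 4 1B mice are highest.

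After the binge on chow, Mt1 rose by a log2 difference of 3.30 ± 0.61 (SE), a 9.87-fold difference in ratio (95% interval 4.03 to 24.2; adjusted p = 0.00428, limma). Mt2 rose by 2.63 ± 0.59, or 6.2-fold (95% interval 2.61 to 14.7; adjusted p = 0.0168, limma). The Mt2 call was lost when 1B mouse 1 or 4 or chow mouse 3 or 4 was left out, with adjusted p-values of 0.0586 to 0.0700. Neither gene passed in this comparison under a 1-way analysis of variance with the Tukey test, here adjusted over all probes (Mt1 adjusted p = 0.136, Mt2 adjusted p = 0.311).

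After the binge on HFD, Mt1 rose by 3.99 ± 0.58 (adjusted p = 0.000275, limma) and Mt2 by 4.53 ± 0.56 (adjusted p = 7.25e-05, limma), which are 15.9-fold and 23.1-fold differences. Within the 4 slides that held both an HFD and an HFD+1B mouse, Mt1 was higher in HFD+1B by 1.72 to 5.29 and Mt2 by 2.89 to 5.73. The call on both genes was kept in each of the 17 fits that left out 1 mouse and in each of 13 other settings. Against chow, the HFD+1B mice were higher by 4.93 in Mt1 (95% interval 3.70 to 6.15) and by 5.14 in Mt2 (95% interval 3.95 to 6.32), as a description.

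The diet alone gave differences of 0.94 ± 0.61 for Mt1 (adjusted p = 0.363, limma) and 0.60 ± 0.59 for Mt2 (adjusted p = 0.568, limma), neither of which passed. Both differences rested on HFD mouse 3: without it they were 0.17 and -0.01. Between the ethanol groups, Mt2 was higher in HFD+1B than in 1B by 2.50 ± 0.56 (adjusted p = 0.00822, limma), or 5.67-fold. For Mt1 the same difference was 1.62 ± 0.58 and did not pass (adjusted p = 0.0922, limma), although the mice of the 2 groups did not overlap. It passed without HFD mouse 3 (adjusted p = 0.0164, limma), which is in neither group. Leaving that mouse out changes the spread that the fit pools over all groups, not this difference. The interaction, which is the effect of the binge on HFD minus its effect on chow, was 0.69 for Mt1 (95% interval -1.10 to 2.47; adjusted p = 0.71, limma) and 1.90 for Mt2 (95% interval 0.18 to 3.62; adjusted p = 0.202, limma), and passed for neither.

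**Figure D2:**
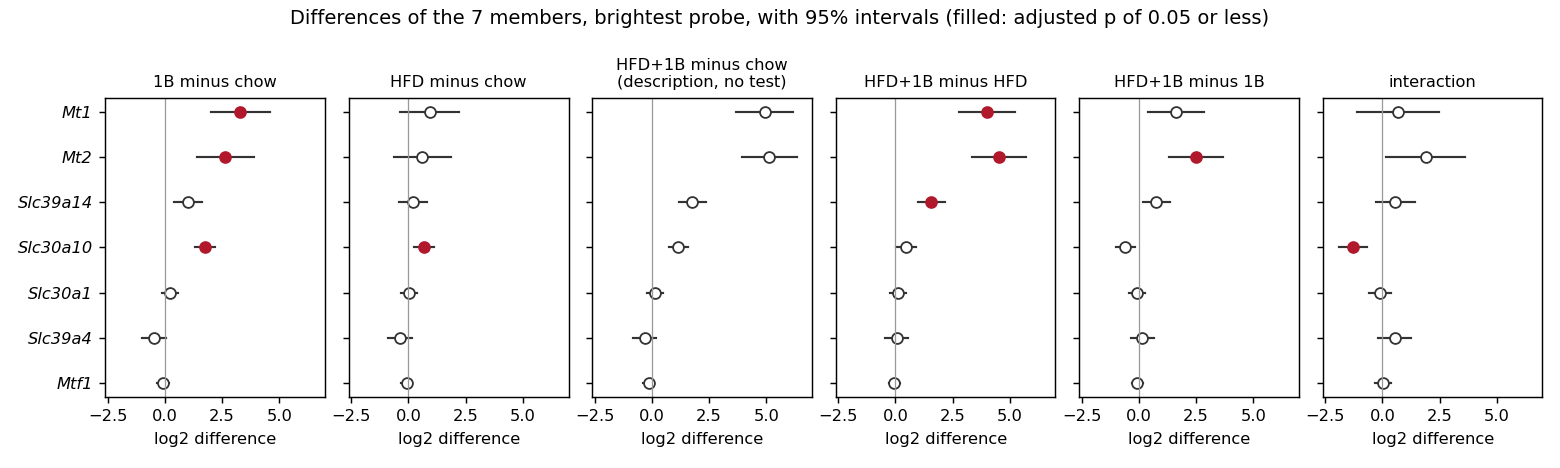
Log2 difference (x axis) with its 95% interval for the brightest probe of each of the 7 genes (y axis) in the 5 pairwise comparisons and the interaction; filled red points passed the test over all probes (adjusted p up to 0.05), and HFD+1B minus chow, a description, has open points throughout. Mt1 and Mt2 lie farthest to the right in both comparisons of ethanol with maltose, and Slc30a10 is the only gene whose interaction passed.

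Part of the difference in the metallothionein ratios lay in the reference dye. The reference RNA was the same on all arrays, yet its normalized Cy3 log2 signal on Mt1 probe 1 was 17.44 ± 0.15 (SD, n = 4) in chow, 16.60 ± 0.47 (n = 4) in 1B, 17.22 ± 0.37 (n = 4) in HFD, and 15.70 ± 0.31 (n = 5) in HFD+1B. On the Mt2 probe it was 16.39 ± 0.081, 15.98 ± 0.45, 16.24 ± 0.17, and 14.97 ± 0.14 in the same order. For both probes every HFD+1B array lay below every array of the other groups. On both probes 1B mouse 3 had the lowest Cy5 and the highest Cy3 signal of its group, whereas HFD+1B mouse 5 had the highest signal of its group in both dyes.

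From chow to HFD+1B the Cy3 signal differed by -1.74 for Mt1 and by -1.42 for Mt2, against a median of -0.01 over the 34664 probes. Only 3 of those probes, Mt1 included, fell as far as Mt1, and 7 as far as Mt2. On the second Mt1 probe, Slc39a14 probe 1, and Slc30a10 probe 1, the same Cy3 difference was -0.07, -0.06, and -0.09.

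Taken from the Cy5 signal alone, Mt1 was higher in HFD+1B than in chow by 3.18 and Mt2 by 3.72, both smaller than the differences in ratio. The rise after the binge still passed on both diets. On chow it was 2.46 for Mt1 (adjusted p = 0.0164, limma) and 2.23 for Mt2 (adjusted p = 0.0475, limma). On HFD it was 2.47 for Mt1 (adjusted p = 0.00414, limma) and 3.27 for Mt2 (adjusted p = 0.00102, limma). The difference of HFD+1B from 1B did not pass on Cy5 alone, at 0.72 for Mt1 (adjusted p = 0.515, limma) and 1.49 for Mt2 (adjusted p = 0.118, limma), so the Mt2 call in that comparison was not obtained from the liver channel alone. The Mt2 Cy5 signal of every HFD+1B mouse (16.44 to 16.97) still lay above that of every 1B mouse (14.07 to 16.21). Over the series, Cy5 alone called fewer genes in that comparison, 358 higher and 272 lower, against 1215 and 997 by ratio. Why the Cy3 signal differed on these 2 bright probes was not tested.

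**Figure D3:**
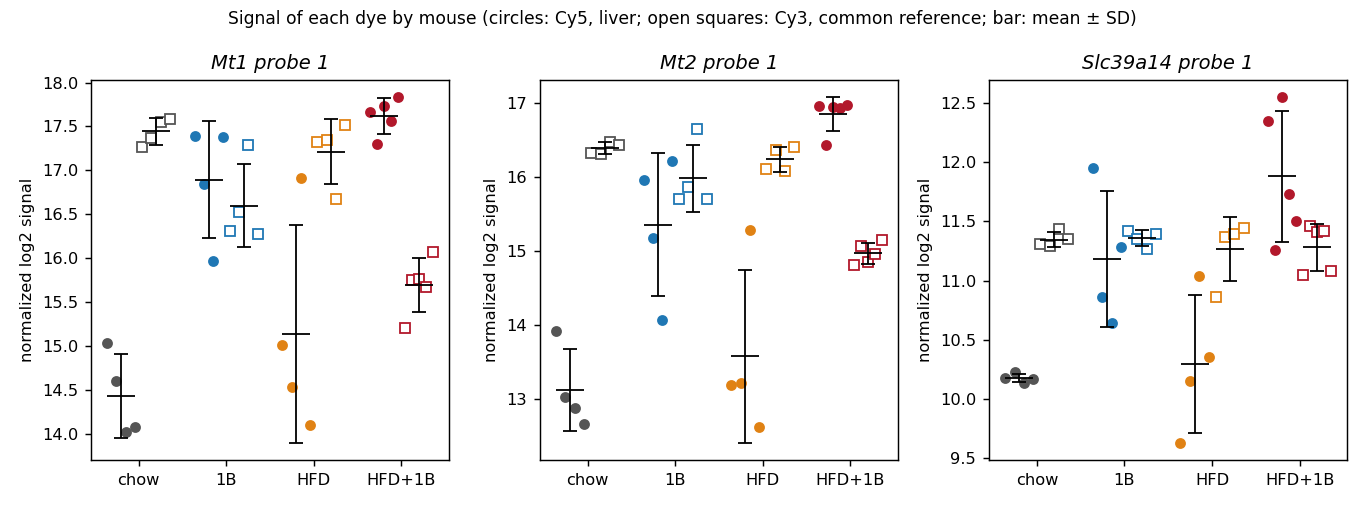
Normalized log2 signal (y axis) of each dye by mouse in the 4 groups (x axis) for Mt1 probe 1, the Mt2 probe, and Slc39a14 probe 1; filled circles are Cy5 (liver), open squares are Cy3 (the common reference), bars are means and whiskers SDs. The Cy3 squares of HFD+1B lie below all others for Mt1 and Mt2 but not for Slc39a14.

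The second probe named Mt1, annotated to a predicted transcript variant, gave a different pattern. It was much dimmer, with a median net Cy5 signal of 160 against 98600 for probe 1. Its log2 ratio was -1.54, -3.59, -3.48, and -3.92 in chow and -3.70, -3.47, -3.84, and -1.46 in 1B. The HFD mice had -2.03, -2.6, -0.42, and -3.01, whereas the HFD+1B mice had 0.85, 0.41, 1.2, 1.11, and 0.77. The chow and 1B mice overlapped fully on this probe, and the HFD+1B mice stood above all others.

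After the binge on chow its difference was 0.02 ± 0.57 (adjusted p = 0.997, limma), whereas after the binge on HFD it rose by 2.88 ± 0.54 (adjusted p = 0.00169, limma). It was also higher in HFD+1B than in 1B by 3.98 ± 0.54 (adjusted p = 0.000177, limma), and its interaction was 2.87 ± 0.79 (adjusted p = 0.0492, limma). The 2 probes correlated over the 17 arrays with r = 0.748, as a description. When all probes of a gene were averaged, the rise of Mt1 after the binge on chow was 1.66 and no longer passed (adjusted p = 0.121), and HFD+1B minus 1B was 2.80 and passed (adjusted p = 0.00223).

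**Figure D4:**
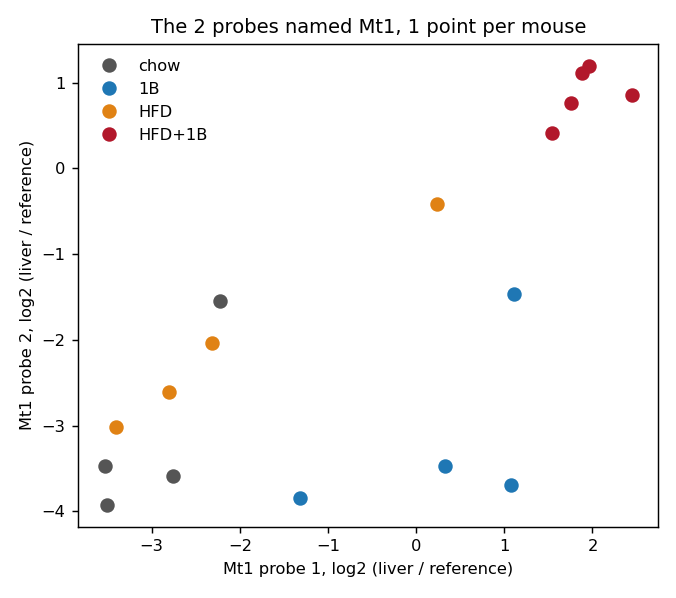
Log2 ratio of Mt1 probe 2 (y axis) against Mt1 probe 1 (x axis), 1 point per mouse, coloured by group. The 1B mice are spread along the x axis but overlap chow on the y axis, with 1B mouse 4 beside chow mouse 1, while the HFD+1B mice are high on both.

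Slc39a14, the hepatic importer, rose after the binge on HFD. On probe 1 its log2 ratio was -1.13, -1.07, -1.30, and -1.18 in chow and 0.53, -0.49, -0.62, and -0.11 in 1B. The HFD mice had -1.23, -1.21, -0.36, and -1.09, whereas the HFD+1B mice had 1.30, -0.20, 1.14, 0.32, and 0.43. The chow mice were close together and lay below every 1B mouse and every HFD+1B mouse, and HFD mouse 3 stood apart from the 3 other HFD mice as it did for the metallothioneins.

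HFD+1B exceeded HFD by 1.57 ± 0.28 in Slc39a14 (2.97-fold; adjusted p = 0.00110, limma), and the call was kept in all 17 fits that left out 1 mouse. On chow the binge difference was 0.99 ± 0.29 and did not pass on this probe (adjusted p = 0.0728, limma). It passed on probe 2 at 0.97 ± 0.25 (adjusted p = 0.0400, limma), where 1B mouse 4 and HFD+1B mouse 1 had no value, and on probe 1 with the slide as a block at 1.13 (adjusted p = 0.0124). It passed too without HFD mouse 3, HFD+1B mouse 1, or HFD+1B mouse 2 (adjusted p = 0.0415 to 0.0493, limma). These mice are in neither group, so leaving them out changed the spread pooled over all groups and not the difference. Against chow, HFD+1B was higher by 1.76 (95% interval 1.18 to 2.35) on probe 1 and by 1.5 (95% interval 1.01 to 1.99) on probe 2, as a description. The diet alone gave 0.20 on probe 1 (adjusted p = 0.730) and -0.46 on probe 2 (adjusted p = 0.227).

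Slc30a10, the manganese exporter, had its highest group mean in 1B, not in HFD+1B, on both probes. On probe 1 its log2 ratio was -1.64, -0.65, -1.11, and -1.14 in chow and 0.63, 0.38, 0.64, and 0.79 in 1B. The HFD mice had -0.58, -0.95, 0.29, and -0.52, whereas the HFD+1B mice had 0.05, -0.10, 0.18, -0.07, and 0.03. On this probe every 1B mouse lay above every mouse of the other groups. The HFD+1B mice lay within the range of HFD, whose top was HFD mouse 3. On probe 2 the mice lay otherwise, and 1B mouse 2 (0.10) fell among the HFD+1B mice (-0.29 to 0.35). There the HFD mice ranged from -0.80 to -0.13, and only the lowest HFD+1B mouse lay within that range.

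The binge on chow raised Slc30a10 by 1.74 ± 0.21 (3.35-fold; adjusted p = 0.000121, limma), with 1.26 ± 0.16 on probe 2 (adjusted p = 0.000163, limma). On HFD the difference was 0.46 ± 0.20 on probe 1 (adjusted p = 0.125, limma) and 0.63 ± 0.15 on probe 2, which passed (adjusted p = 0.00813, limma). Without HFD mouse 3, probe 1 passed as well at 0.70 (adjusted p = 0.0104). The interaction was -1.29 ± 0.29 on probe 1 (adjusted p = 0.0219, limma) and -0.63 ± 0.22 on probe 2 (adjusted p = 0.116, limma), so the binge effect was smaller on HFD than on chow by the first probe and did not pass by the second.

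The probe 1 interaction of Slc30a10 passed in all 17 fits that left out 1 mouse (-1.46 to -1.04). It did not pass on Cy5 alone (-1.04; adjusted p = 0.202) or in the authors' log2 table (-1.52; adjusted p = 0.0638). HFD minus chow was 0.69 ± 0.21 on probe 1 and passed narrowly (adjusted p = 0.0466, limma), a call that was lost in 15 of 17 fits that left out 1 mouse and that probe 2 did not give (0.33; adjusted p = 0.210). HFD+1B was higher than chow by 1.15 (95% interval 0.73 to 1.58), as a description, and HFD+1B minus 1B was -0.59 ± 0.20 and did not pass (adjusted p = 0.0730, limma). With the slide as a block HFD+1B minus 1B on probe 1 was -0.67 and passed (adjusted p = 0.0424, limma). Within the 4 slides that held both groups it was -0.86 to -0.35. On probe 2 HFD+1B minus 1B was -0.30 ± 0.15 and did not pass (adjusted p = 0.263, limma), and within slides it was -0.81 to 0.01.

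Slc30a1, the plasma membrane zinc exporter and the best known MTF-1 target besides the metallothioneins, did not pass in any tested comparison. On probe 1 the group means of its log2 ratio were 0.14 ± 0.14 in chow (SD, n = 4), 0.36 ± 0.24 in 1B (n = 4), 0.16 ± 0.37 in HFD (n = 4), and 0.27 ± 0.23 in HFD+1B (n = 5). The binge difference of Slc30a1 was 0.22 on chow (95% interval -0.13 to 0.57) and 0.11 on HFD (95% interval -0.23 to 0.44). Both intervals of this ratio lay below the differences of Mt1 and Mt2 and leave room for a small rise. On Cy5 alone the difference was 0.67 on chow (adjusted p = 0.735, limma) and -0.20 on HFD (adjusted p = 0.811, limma). The activity of MTF-1 was not tested. The 2 probes of Slc30a1 did not vary together (r = -0.054 over 17 arrays, as a description).

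Slc39a4, the intestinal zinc importer that is altered in acrodermatitis enteropathica, had group means of 0.24 ± 0.37 in chow and -0.14 ± 0.43 in HFD after maltose, and of -0.23 ± 0.15 in 1B and -0.07 ± 0.52 in HFD+1B after ethanol (SD). Its binge difference on chow was -0.47 (95% interval -1.0 to 0.06; adjusted p = 0.451, limma), with every 1B mouse below every chow mouse. On HFD the difference for Slc39a4 was 0.06 (95% interval -0.44 to 0.57). Mtf1 itself kept within a narrow range, with group means on probe 1 of -0.13 in chow and -0.21 in HFD after maltose, and of -0.20 in 1B and -0.26 in HFD+1B after ethanol. The largest difference of Mtf1 on probe 1 was -0.14 (HFD+1B minus chow, 95% interval -0.38 to 0.11), and neither of its 2 tested probes passed in any tested comparison.

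Counted over the 7 genes by brightest probe, 3 were higher in 1B than in chow (Mt1, Mt2, and Slc30a10) and 0 lower, where 2.09% of all genes tested were higher and 2.05% lower. In HFD minus chow 1 was higher (Slc30a10), against 4.50% of all genes higher and 6.46% lower. In HFD+1B minus HFD 3 were higher (Mt1, Mt2, and Slc39a14), against 11.0% higher and 8.39% lower. In HFD+1B minus 1B 1 was higher (Mt2), against 6.28% higher and 5.15% lower, and in the interaction 1 was lower (Slc30a10), against 2.66% higher and 1.72% lower. In HFD+1B minus chow, on which the choice of genes leaned, 4 were higher (Mt1, Mt2, Slc39a14, and Slc30a10), where 8.90% of all genes were higher and 7.40% lower, and nothing is read from that count. The median difference of the 7 genes was 0.99 in 1B minus chow and 0.46 in HFD+1B minus HFD, with medians over all genes of 0.01 in both. Each of the other comparisons holds the same chow or HFD+1B mice on which the choice of genes leaned. Their counts and medians are therefore descriptions of a chosen set.

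Of 22 other metallothionein and zinc transporter genes, 19 were tested (Slc30a3, Slc30a8, and Slc39a12 were too dim). None passed in 1B minus chow, with differences from -0.32 to 0.79, where 2.09% of all genes were higher and 2.05% lower. In HFD+1B minus HFD 1 was higher and 1 lower, beside 11.0% and 8.39% of all genes. The higher was Mt4, a metallothionein known from stratified epithelia, at 0.62 (adjusted p = 0.00484, limma), and the lower was Slc39a9, a ZIP of the secretory pathway, at -0.73 (adjusted p = 0.000568, limma).

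Mt4 was low in every HFD mouse (-0.50, -0.47, -0.95, and -0.77) and lay between -0.31 and 0.21 in HFD+1B and between -0.22 and 0.05 in chow. Its interaction was 0.91 (adjusted p = 0.0189, limma), and in HFD minus chow it fell by 0.60 (adjusted p = 0.0136, limma). Slc39a9 was the reverse: it was high in HFD (0.09, 0.15, 0.57, and 0.41) and lay between -0.53 and -0.23 in HFD+1B. Both thus moved with the group whose ribosomal RNA signal was low, and its part in these values was not tested.

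Slc30a4, an exporter into vesicles, was higher in HFD+1B than in 1B by 0.62 (adjusted p = 0.00527, limma) and than in chow by 0.47. Slc39a6 was higher in HFD+1B than in chow by 0.79 (95% interval 0.32 to 1.26). The 1B mice shared this shift, although Slc39a6 did not pass in 1B minus chow. Its group mean was -0.05 in both 1B and HFD+1B, against -0.84 in chow and -0.68 in HFD. In HFD minus chow 2 of the 19 were higher and 1 lower, beside 4.50% and 6.46% of all genes. In HFD+1B minus chow 3 were higher, beside 8.90% of all genes. The count was 1 higher in HFD+1B minus 1B and 1 higher in the interaction, beside 6.28% and 2.66%. The median difference of the 19 was 0.02 after the binge on chow and 0.08 after the binge on HFD.

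**Figure D5:**
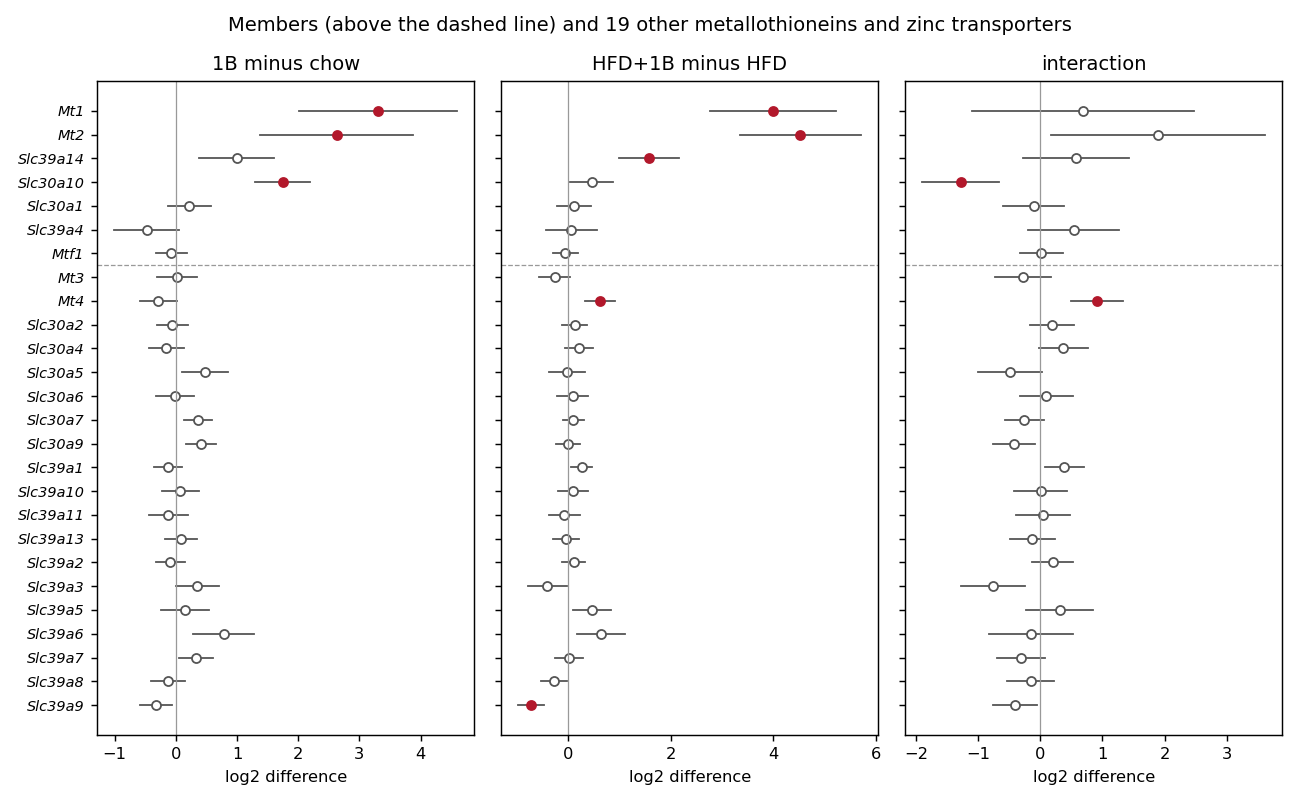
Log2 difference (x axis) with its 95% interval for the 7 genes (above the dashed line) and 19 other metallothioneins and zinc transporters (below it), for the binge on chow (left), the binge on HFD (middle), and the interaction (right); filled red points passed the test over all probes (adjusted p up to 0.05). The scale of each panel differs, and below the line no point lies beyond a difference of 0.91, with Mt4 and Slc39a9 as the filled ones.

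Of 7 other genes linked to MTF-1, 0 were higher and 1 was lower after the binge on chow, where 2.09% and 2.05% of all genes were. The lower one was Gclc, the catalytic subunit of the enzyme that begins glutathione synthesis, at -0.82 (adjusted p = 0.00374, limma). After the binge on HFD 2 of the 7 were higher and 0 lower, beside 11.0% and 8.39% of all genes: Pgf, a growth factor of the VEGF family, by 0.59 (adjusted p = 0.0160, limma) and Ndrg1, a gene induced by stress and hypoxia, by 0.47 (adjusted p = 0.0128, limma).

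Among 11 genes of copper and manganese handling, none passed after the binge on chow. On HFD 4 of the 11 were higher after the binge and 2 lower, beside 11.0% and 8.39% of all genes. The copper ATPase Atp7b rose by 0.71 (adjusted p = 0.00146, limma) and ceruloplasmin, Cp, by 0.40 (adjusted p = 0.0418, limma). The copper importer Slc31a1 fell by 0.54 (adjusted p = 0.0410, limma), and Ccs, the copper chaperone of superoxide dismutase, fell by 0.46 (adjusted p = 0.0197, limma).

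A list of 14 liver enzymes was drawn up for zinc, but Ass1 among them does not hold it. Of the 14, 5 were lower and 2 higher after the binge on chow, and 5 were lower and 0 higher after the binge on HFD. Of all genes 2.05% were lower and 2.09% higher on chow, and 8.39% and 11.0% on HFD. The alcohol dehydrogenase Adh4 fell by 1.52 on chow (adjusted p = 2.05e-06, limma) and by 1.59 on HFD (adjusted p = 5.61e-07, limma). Sorbitol dehydrogenase, Sord, fell by 0.75 on chow (adjusted p = 0.00678, limma) and by 0.89 on HFD (adjusted p = 0.000470, limma). The median over the 14 was -0.21 on chow and -0.26 on HFD.

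Interleukin-6 acting through STAT3, and glucocorticoids, are known inducers of metallothioneins in liver. In a list of 13 genes of interleukin-1, interleukin-6, and STAT3 signaling, 1 was higher after the binge on chow, which was Stat3 by 0.77 (adjusted p = 0.00708, limma). After the binge on HFD 7 were higher and 1 lower, and in the interaction 1 of the 13 was higher. Over all genes 2.09% were higher on chow, 11.0% higher and 8.39% lower on HFD, and 2.66% higher in the interaction. The interleukin-1 receptor Il1r1 rose by 1.78 (adjusted p = 0.00113, limma), Stat3 rose by 1.40 (adjusted p = 1.82e-05, limma), and the receptor Lifr fell by 0.70 (adjusted p = 0.00668, limma).

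Il6 itself differed by 0.06 after the binge on HFD and did not pass (adjusted p = 0.645). Of 10 glucocorticoid responsive genes 1 was higher after the binge on chow and 5 after the binge on HFD, with 1 lower, and in the interaction 1 of the 10 was higher, beside the same shares of all genes. Tat, a tyrosine aminotransferase, rose by 2.79 (adjusted p = 0.000154, limma) and Cdkn1a, a cell cycle inhibitor, by 2.47 (adjusted p = 0.000486, limma), whereas the receptor Nr3c1 fell by 0.42 (adjusted p = 0.0174, limma).

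The genes most like Mt1 over the 17 arrays, of 17991 with a value on each, were Mt2 (r = 0.984), Fgg (0.957), Lrg1 (0.955), Abca1 (0.952), and Mllt4 (0.947). Those most like Mt2 were Mt1, Abca1 (0.958), Gtf2a2 (0.952), Mllt4 (0.945), and Stat3 (0.944). For Slc39a14 they were Abca1 (0.966), Il1r1 (0.939), Map1lc3b (0.935), Stat3 (0.934), and Rmnd5a (0.929). Fgg is a fibrinogen chain and Lrg1 an acute phase glycoprotein, and Abca1 exports cholesterol. These correlations are descriptions, since the 4 groups lie apart in most of these genes. Within groups, after each group mean was taken off, Mt1 and Mt2 correlated with r = 0.969, Mt1 and Slc39a14 with r = 0.645, and Mt1 and Slc30a10 with r = 0.479.

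The hepatocyte list was present, with 11 of 11 tested markers above background on all arrays. Its mean over genes, relative to the chow mean, was -0.14 to 0.21 in chow mice, 0.17 to 0.68 in 1B mice, -0.11 to 0.35 in HFD mice, and -0.18 to 0.46 in HFD+1B mice, and 2 of the 11 were higher after the binge on chow (2.09% of all genes). Among markers of other cells, 1 of 13 of neutrophils, 1 of 11 of stellate cells, and 0 of 7 of cholangiocytes were higher after that binge. Their list means were -0.19 to 0.20, 0.08 to 0.23, and -0.17 to 0.18 over 1B mice, beside -0.11 to 0.18, -0.12 to 0.14, and -0.08 to 0.08 over chow mice.

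After the binge on HFD, where 11.0% of all genes were higher and 8.39% lower, 2 of the 13 neutrophil markers were higher and 1 lower, and the list mean ranged from -0.24 to 0.27 over HFD mice and from 0.01 to 0.33 over HFD+1B mice. Of 11 stellate cell markers 3 were higher in that comparison (list mean 0.63 to 0.84 over HFD mice and 0.37 to 1.24 over HFD+1B mice), and of 7 cholangiocyte markers 3 were higher (-0.16 to 0.10 and 0.18 to 0.80). The part of these cell types in the values of the 7 genes was not tested.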

How the data were processed

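Total liver RNA of 17 mice was measured on 2-colour Agilent arrays, with Cy5 for the mouse and Cy3 for a common reference, and no dye swap. The authors deposited scanner intensity values from Feature Extraction 11.5.1.1 and a table of log2 ratios. The log2 values of that table equalled the log2 ratio of the processed signals within 2.7e-06 over 40901 probes with a single spot. The study's methods name the strain C57BL/6J, whereas the labels have C57BL/6N.

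The deposited median intensity of each spot was corrected for background (normexp, offset 50), outlier spots were left out, and log2 ratios were normalized by loess within arrays with limma 3.58.1 in R 4.3.3. Probes well above background in Cy5 on 4 or more arrays, with a value in every group, were tested with limma on all 17 arrays. P-values were adjusted by Benjamini-Hochberg over all probes, and a gene was called on its brightest probe at 0.05 or less. Signals of single dyes were scaled between arrays by Aquantile. Errors are SEs of the fit unless named SD. The scripts were tested on simulated data.

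Mice of a group are separate animals. The number of arrays limits the precision. The genes and lists were chosen with earlier results of these data known. Named beyond the 7 were family genes called at a difference of 0.58 or more, the 2 called genes of each other list that rose most and the 2 that fell most in HFD+1B minus HFD, and the 5 genes most like Mt1, Mt2, and Slc39a14. Il6, Gclc, and the chow values beside those genes were added after values were seen. Promoter windows came from RefSeq tables of GRCm38.p6, and the tables held a window for 5 of the 7 genes.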

Additional observations from a re-analysis of the deposited data

Results flagged for a closer look

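A mouse lay far from the rest of its group in 7 of 47 sets of group values for the probes of the 7 genes, judged by the gap of the farthest mouse to its nearest neighbour as a share of the range of the group. Chance alone sets apart a mouse in about 1 in 20 such sets. HFD mouse 3 was the high one in Slc39a14 probe 1 (0.842) and in Mtf1 probe 1 (0.869). The gap was 0.843 for 1B mouse 4 in Mt1 probe 2, 0.906 for 1B mouse 2 in Slc30a10 probe 2, and 0.917 for chow mouse 4 in Slc30a1 probe 2. It was 0.715 for HFD+1B mouse 5 in Slc30a1 probe 1 and 0.728 for HFD+1B mouse 4 in Mtf1 probe 2. The cause of these gaps was not tested.

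The effect of the binge differed between diets, by the interaction in limma, on 2 probes. It was larger on HFD by 2.87 for Mt1 probe 2, the probe of the predicted variant, and smaller on HFD by a difference of -1.29 for Slc30a10 probe 1. The other probe of each gene did not give that call.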

How the results depend on the processing

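Results were recomputed under 13 other settings and without each of the 17 mice in turn. Of 539 differences of single genes under the settings, 507 kept their side of the threshold, 17 lost and 15 gained the call, no called value changed sign, and 20 values never called did. The number of the 7 genes called in HFD minus chow (1) was 0 without background subtraction, with the authors' table, median centring, quantile scaling, Cy5 alone, no filter on dim probes, the slide as a block, array weights, a 2-fold rule with unadjusted p, or the Tukey test. In HFD+1B minus 1B (1) it was 2 with median centring, quantile scaling, the slide as a block, the 2-fold rule, or the mean of probes, 4 with array weights, and 0 with Cy5 alone or Tukey. The genes beside Mt2 were Slc39a14, higher, with median centring, Mt1, higher, with quantile scaling, the 2-fold rule, or the mean of probes, Slc30a10, lower, with the slide block, and all 3 of them with array weights. In the interaction (1) it was 0 with the authors' table or Cy5 alone and 2 with the 2-fold rule. In 1B minus chow (3) it was 1 with Tukey and 4 with the slide as a block or array weights. In HFD+1B minus HFD (3) it was 4 with median centring, array weights, or the mean of probes. Among the 19 other zinc genes, 1B minus chow (0) gave 1 with median centring and 2 with the slide block, the replicate block, or array weights. HFD minus chow (3) gave 1 with median centring or Cy5 alone and 0 with the 2-fold rule, the mean of probes, or Tukey. HFD+1B minus chow (3) gave 1 with Cy5 alone and 0 with the 2-fold rule or Tukey. HFD+1B minus HFD (2) gave 6 with median centring, 4 with quantile scaling, the slide block, or array weights, 5 with the replicate block, 0 with the 2-fold rule, and 1 with Tukey. HFD+1B minus 1B (1) gave 0 with Cy5 alone, the 2-fold rule, or Tukey and 2 with array weights. The interaction (1) gave 2 with median centring or the slide block, 4 with the replicate block, and 0 with Cy5 alone or the 2-fold rule. Some moves of 1 gene in the counts of the other zinc genes are not listed. Without 1 mouse, the counts of the 7 genes were 2 to 4 in 1B minus chow, 0 to 1 in HFD minus chow, 4 in HFD+1B minus chow, 3 to 4 in HFD+1B minus HFD, 1 to 3 in HFD+1B minus 1B, and 1 in the interaction. The count in HFD+1B minus 1B was 3 without HFD mouse 3, which is in neither group, and 2 without 1B mouse 1 or HFD+1B mouse 2. Those of the other zinc genes were 0 to 2, 0 to 4, 1 to 3, 2 to 3, 1 to 3, and 1 to 2 in the same order, where leaving out HFD mouse 3 gave 2 in 1B minus chow, 0 in HFD minus chow, and 3 in HFD+1B minus 1B. Counts of the other zinc genes also moved without chow mouse 2 (HFD minus chow 1), chow mouse 1 or 3 (HFD+1B minus chow 1), HFD mouse 1 (HFD+1B minus 1B 2), and HFD+1B mouse 5 (1B minus chow 1, interaction 2). Replicate numbers were not taken as pairing mice, since not every pair of the same number correlated over 0.1. That rule is not a test of pairing. In deviations from the group mean, 24 pairs of the same number from different groups correlated by -0.126 to 0.479 (median 0.178). The 84 pairs of other numbers correlated by -0.427 to 0.321 (median -0.0484). On the same slide 21 pairs had a median of 0.195, and 87 pairs on different slides had -0.0429. The main fit held no term for slide or replicate number. The replicate block changed none of the 6 counts of the 7 genes (Mt2 in HFD+1B minus HFD 4.55). Median centring moved the median over all genes to 0.14 in HFD+1B minus HFD and in the interaction, and the share of called genes that were higher from 56.6% to 89.1% and from 60.7% to 93.3%. That share moved with it from 50.6% to 40.2% in 1B minus chow, 41.1% to 13.8% in HFD minus chow, 54.6% to 66.3% in HFD+1B minus chow, and 54.9% to 75.6% in HFD+1B minus 1B. With Cy5 alone it was 25.2% in HFD minus chow, 70.9% in HFD+1B minus HFD, and 82.7% in the interaction. The cause of these changes was not tested.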
